A study of Mus musculus with 8 samples.

Results

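The naive pluripotency factors described here are 10 genes: Klf2, Klf4, Klf5, Esrrb, Nr5a2, Tfcp2l1, Zfp42, Tbx3, Dppa3 and Prdm14. They were taken by gene symbol from the 52636 Ensembl gene identifiers of a table of RNA-seq counts, and all 10 had a row. The table holds 8 libraries of mouse epiblast, the embryonic tissue that forms the body, at embryonic day 5.5. The embryos had the genotype Sox2Cre;CRAFR26, in which Cre made under the Sox2 promoter recombines the epiblast and an inducible cRAF construct (cRAFR26) lets 4-hydroxytamoxifen (4OHT) induce the kinase ERK. All embryos, controls included, carried this genotype, and the mouse line was made by injecting targeted embryonic stem cells into morulas. The labels name 2 clones, clone 4 and clone 8. Of each clone, 2 libraries came from embryos kept in IVC2 medium with 250 nM 4OHT for 4 h and 2 from embryos in ethanol vehicle. The vehicle libraries carry 4 h in their treatment label and 0 h in their title and time label. Were they taken uncultured, 4OHT and the 4 h of culture could not be told apart in any comparison of treatment. Each library is a pool of 10 epiblasts, from which the extraembryonic layers had been dissected away, and 7 ng of RNA. The labels do not say whether replicates came from separate litters or days, so p-values measure the spread between these pools, which may be technical.

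Naive pluripotency is the state of the preimplantation epiblast and of mouse embryonic stem cells kept with the cytokine LIF and an inhibitor of the ERK pathway. A network of transcription factors maintains it downstream of LIF and Stat3, Wnt and the core factors Pou5f1 and Sox2. FGF signalling through ERK drives its exit, and most of these factors decline as the embryo implants and the epiblast becomes formative. Several of them also have roles outside the epiblast: Esrrb, Klf5 and Zfp42 in the trophoblast lineage, Tbx3 in the visceral endoderm, and Dppa3 and Prdm14 in primordial germ cells.

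Depth was 33.3 M to 38.0 M counts (M, mega) in vehicle and 56.4 M to 72.5 M in 4OHT libraries, and 23138 to 23832 genes had at least 1 count. Replicates differed by more than sampling noise, as their chi-square was 20.9 to 61.1 times its degrees of freedom, and each was kept as a sample of its own. Egr1, an immediate early gene used as a check of ERK induction, stood at 5.77 to 18.2 counts per M of the scaled library total (CPM) in vehicle and 55.4 to 379 CPM in 4OHT libraries. The 379 CPM was in replicate 2 of clone 8, and the other treated libraries stood at 55.4 to 75.9 CPM. Summed over 10 epiblast markers, the level was 5202 to 6548 CPM. Markers of the dissected layers were present in every library, with none at 0 counts: 18 visceral endoderm markers summed to 918 to 4769 CPM and 15 extraembryonic ectoderm markers to 237 to 871 CPM. In bulk libraries, a change in the number of cells of a type and a change in RNA per cell cannot be told apart.

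To compare the members with each other, CPM was divided by exonic length in kilobases (kb). Zfp42, a zinc finger gene widely used as a reporter of the naive state, had the highest level, 33.3 ± 11.9 CPM per kb (SD over all libraries, n = 8). Dppa3, which protects DNA methylation in the early embryo, followed at 13.4 ± 4.45, the nuclear receptor gene Esrrb at 10.2 ± 4.42, Klf5 at 7.20 ± 3.69 and Tbx3 at 6.63 ± 6.79 CPM per kb. A lower group held Tfcp2l1 at 1.04 ± 0.227, Klf4 at 0.720 ± 0.343, Klf2 at 0.408 ± 0.185 and Nr5a2 at 0.180 ± 0.0820 CPM per kb. Prdm14 was lowest at 0.0240 ± 0.0254 CPM per kb. In the plot of level per length, the ranges of neighbours in this order overlap except between Tbx3 and Tfcp2l1 and between Nr5a2 and Prdm14. Compared library by library, Zfp42 also exceeded Dppa3, and Klf2 exceeded Nr5a2, in 8 of 8 libraries. The other 5 pairs of neighbours held their order in 4 to 6 of 8.

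**Figure D1:**
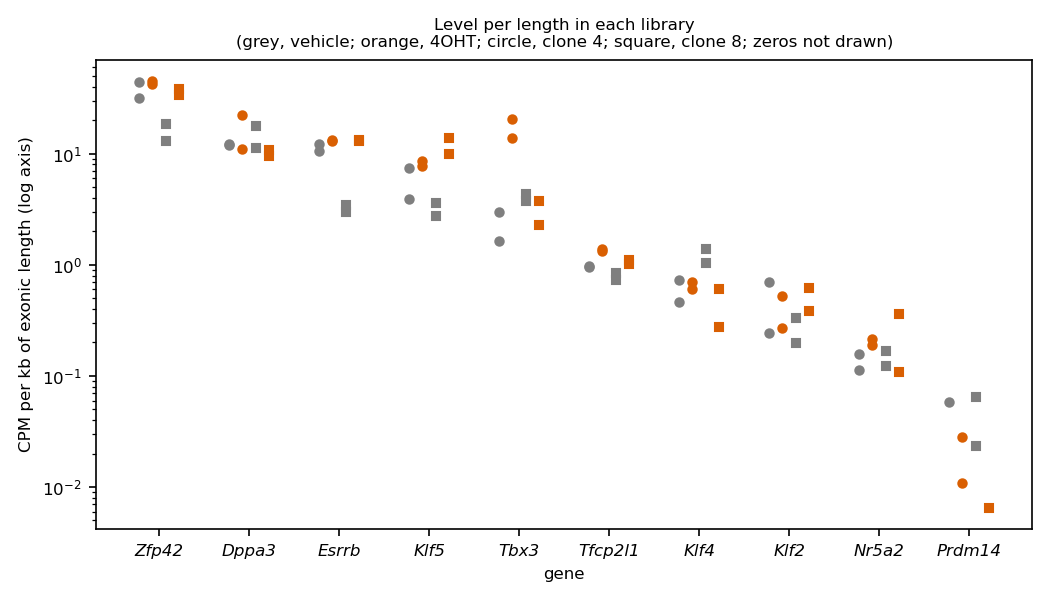
Level of each member in CPM per kb of exonic length (log axis), 1 point per library, grey for vehicle, orange for 4OHT, circles for clone 4 and squares for clone 8; Prdm14 values of 0 are not drawn. Zfp42 has the highest mean, 33.3 CPM per kb, Prdm14 the lowest, 0.0240 CPM per kb, and the points of Tbx3 in 4OHT-treated clone 4 lie above its other 6 points.

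The first comparison asked which members changed after 4 h of 4OHT within each clone. In clone 8, Esrrb, Klf5 and Zfp42 rose, 4.11-fold, 3.73-fold and 2.28-fold, and no member passed the test as lower, although Klf4 came close. In clone 4, Tbx3 rose 7.40-fold and no other member passed the test. Of the 10 members, 9 had enough counts to be tested; Prdm14 did not. The test was edgeR's quasi-likelihood test, with a call at an adjusted p under 0.05 over all 18321 tested genes.

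These counts stand beside very different backgrounds. In clone 8, 3 of 9 tested members were called higher, where 8.00% of all tested genes were, and 0 were called lower, where 8.60% were. At an unadjusted p under 0.05 clone 8 had 3 members higher and 1 lower, where 17.3% and 15.8% of all genes were. DESeq2 called 3 higher and 1 lower, where it called 11.4% and 12.2% of all genes. In clone 4, 1 of 9 was called higher, where 0.0382% of all tested genes were (7 genes), and 2 members were higher at an unadjusted p under 0.05, where 6.22% of all genes were. The median log2 fold change of the tested members was 0.48 in clone 4, where that of all genes was -0.00, and 8 of 9 were positive. In clone 8 the median was 0.68, where that of all genes was 0.07, and 6 of 9 were positive. With library totals in place of TMM scaling, the median of all genes in clone 8 was 0.19 and its calls became 2102 higher and 1074 lower, against 1465 and 1576. The members called in each clone numbered the same under that scaling.

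**Figure D2:**
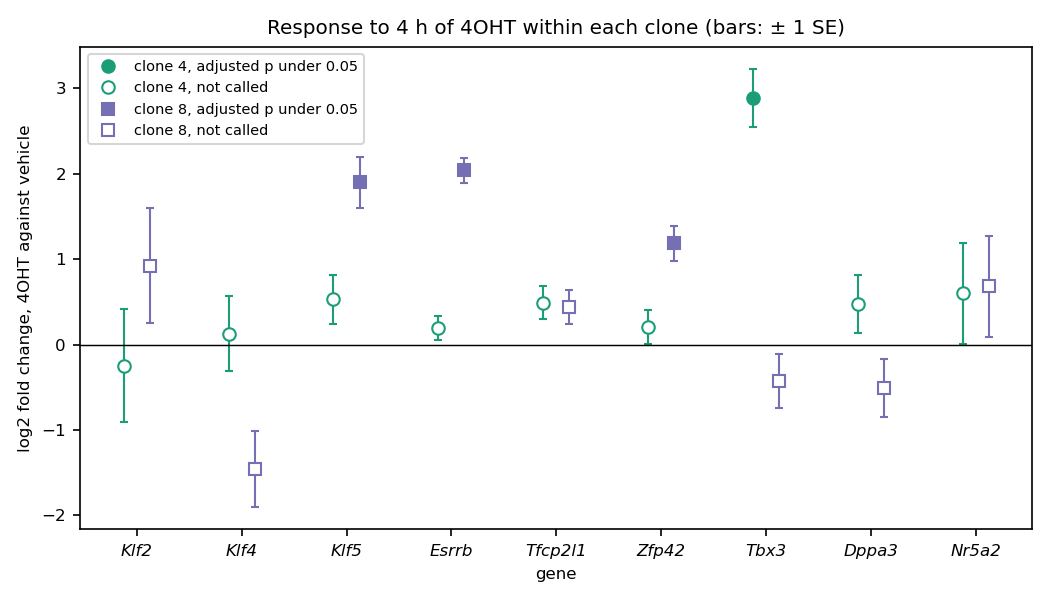
Log2 fold change of 4OHT against vehicle for the 9 tested members, circles for clone 4 and squares for clone 8, with bars of 1 SE; filled symbols passed an adjusted p under 0.05. Filled symbols are Tbx3 in clone 4 at 2.89 and Klf5, Esrrb and Zfp42 in clone 8 at 1.90, 2.04 and 1.19.

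Esrrb encodes an orphan nuclear receptor that sustains self-renewal of naive stem cells (ENSMUSG00000021255, GRCm38 chr12:86361117-86521628, plus strand). Vehicle libraries had 74.2 and 63.7 CPM (clone 4) and 18.2 and 20.8 CPM (clone 8). Treated libraries had 77.9 and 79.9 CPM (clone 4) and 80.9 and 79.3 CPM (clone 8). The 4 treated libraries thus lay within a narrow band above all 4 vehicle libraries, and the vehicle libraries of clone 8 lay far below the other 6. The log2 fold change was 2.04 (SE 0.14, adjusted p 0.00215) in clone 8 and 0.19 (SE 0.14, adjusted p 0.732) in clone 4. The difference of the responses, clone 8 minus clone 4, was 1.85 (SE 0.19) with an adjusted p of 0.0122.

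Zfp42 encodes a zinc finger protein also known as Rex1 (ENSMUSG00000051176, GRCm38 chr8:43295063-43306980, minus strand). Vehicle libraries had 82.8 and 60.0 CPM (clone 4) and 24.6 and 34.6 CPM (clone 8). Treated libraries had 84.4 and 80.3 CPM (clone 4) and 72.1 and 62.8 CPM (clone 8). Both treated libraries of clone 8 were above both of its vehicle libraries, while the groups of clone 4 overlapped. The log2 fold change was 1.19 (SE 0.21, adjusted p 0.0110) in clone 8 and 0.21 (SE 0.20, adjusted p 0.821) in clone 4. Their difference, 0.98 (SE 0.29), did not pass the threshold (adjusted p 0.0963).

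The 250 bases before the annotated starts of Zfp42 and of Esrrb, at its upstream and its downstream start, are shown because both genes rose in clone 8 and are known targets of the network (RefSeq, GRCm38.p6, 5′ to 3′ on the gene's strand).
Zfp42, chr8:43307010-43307259, minus strand: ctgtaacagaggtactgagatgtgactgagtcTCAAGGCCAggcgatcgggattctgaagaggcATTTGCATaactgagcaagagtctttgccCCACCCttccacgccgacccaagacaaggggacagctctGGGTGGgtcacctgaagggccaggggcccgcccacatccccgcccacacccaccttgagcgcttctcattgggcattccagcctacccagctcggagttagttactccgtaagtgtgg
Esrrb upstream start, chr12:86360867-86361116, plus strand: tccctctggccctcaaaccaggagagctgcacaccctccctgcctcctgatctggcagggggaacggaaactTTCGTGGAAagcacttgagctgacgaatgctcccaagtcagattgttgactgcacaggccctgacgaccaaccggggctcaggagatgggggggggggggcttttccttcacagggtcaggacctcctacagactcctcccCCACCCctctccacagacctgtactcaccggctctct
Esrrb downstream start, chr12:86421394-86421643, plus strand: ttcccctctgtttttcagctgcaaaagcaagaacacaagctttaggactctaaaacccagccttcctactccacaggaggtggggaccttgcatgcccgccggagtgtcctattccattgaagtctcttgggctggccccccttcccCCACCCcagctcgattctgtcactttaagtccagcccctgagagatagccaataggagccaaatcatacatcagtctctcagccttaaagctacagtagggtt
Capitals mark matches on either strand to 7 motifs, chosen with the genes' values known, in which N is any base; no match overlaps another. In the Zfp42 window the octamer ATTTGCAT, the site of POU factors such as Pou5f1, lies 186 to 179 bases before the start, and 1.60% of 32851 RefSeq promoter windows of the same length hold it. TCAAGGNCA, the extended site bound by Esrrb and Nr5a2, lies 218 to 210 bases before the start and is held by 1.39% of windows. The CACCC box CCACCC, a Klf site, occurs at 157 to 152 and, on the other strand, at 118 to 113 bases before the start, and 28.1% of windows hold it. In Esrrb the CACCC box lies 37 to 32 bases before the upstream start and 103 to 98 before the downstream one. The STAT motif TTCNNNGAA lies 178 to 170 bases before the upstream Esrrb start and is held by 7.02% of windows. No match to the ETS motif CCGGAA (12.0% of windows), the AP-1 motif TGANTCA (6.75%) or the EGR motif GCGNGGGCG (4.70%) is in these 3 windows. Among members not shown, the EGR motif occurs in Klf4, at 211 to 203 and 194 to 186 bases before the start. It also occurs in Klf2, at 199 to 191. Of the 10 members, 6 matched the table, with 8 starts; Klf5, Tbx3, Dppa3 and Prdm14 had no entry.

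The Klf genes encode zinc finger factors that bind GC-rich and CACCC sequences and partly replace one another in stem cells. Klf5, which is also needed for the trophoblast lineage (ENSMUSG00000005148, GRCm38 chr14:99298691-99315036, plus strand), stood at 38.4 and 20.5 CPM in vehicle clone 4 and at 14.3 and 18.6 CPM in vehicle clone 8. Treated libraries had 44.5 and 40.7 CPM (clone 4) and 51.2 and 71.3 CPM (clone 8). Every treated library was above every vehicle library, with clone 8 showing the widest gap. The log2 fold change was 1.90 (SE 0.30, adjusted p 0.00929) in clone 8 and 0.53 (SE 0.29, adjusted p 0.610) in clone 4. The difference of the responses, 1.37 (SE 0.41), had an adjusted p of 0.102.

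Klf4, a direct target of LIF and Stat3, rests on 52 to 152 counts per library (ENSMUSG00000003032). It stood at 1.42 and 2.20 CPM in vehicle and 1.83 and 2.11 CPM in 4OHT libraries of clone 4. In clone 8 it stood at 4.21 and 3.13 CPM in vehicle and at 0.834 and 1.84 CPM after 4OHT. Its clone 8 values did not overlap, in the direction opposite to Klf5, yet the log2 fold change of -1.46 (SE 0.44) missed the threshold with an adjusted p of 0.0522. DESeq2 called it there at -1.48 (adjusted p 0.0156). Klf4 was also called without an expression filter (-1.43, adjusted p 0.0165), in counts thinned to the smallest library (-1.49, 0.0328) and without 4OHT clone 8 replicate 2 (-2.14, 0.0248). Its log2 fold change in clone 4 was 0.13 (SE 0.44, adjusted p 0.963). Klf2, whose protein ERK is known to mark for degradation, had only 12 to 69 counts per library and 0.362 to 1.28 CPM (ENSMUSG00000055148). Its groups overlapped in clone 4 and not in clone 8, where vehicle stood at 0.613 and 0.362 and 4OHT at 0.706 and 1.15 CPM. Its log2 fold changes were -0.25 (SE 0.66, adjusted p 0.950) in clone 4 and 0.92 (SE 0.67, adjusted p 0.375) in clone 8.

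Tfcp2l1, a grainyhead-type factor that acts downstream of LIF and Wnt, moved by like amounts in both clones without a call (ENSMUSG00000026380, GRCm38 chr1:118627945-118685168, plus strand). It stood at 8.96 and 9.26 CPM in vehicle clone 4 and 6.88 and 7.89 CPM in vehicle clone 8, and after 4OHT at 13.2 and 12.4 CPM in clone 4 and 9.66 and 10.4 CPM in clone 8. All 4 treated libraries were above all 4 vehicle libraries. The log2 fold change was 0.49 (SE 0.20, adjusted p 0.455) in clone 4 and 0.44 (SE 0.20, adjusted p 0.153) in clone 8. The difference of the responses was -0.05 (SE 0.28, adjusted p 0.936). Nr5a2, a nuclear receptor that activates Pou5f1 and is known to act in early embryos, had 25 to 127 counts per library (ENSMUSG00000026398). It stood at 0.669 and 0.923 CPM in vehicle and 1.13 and 1.28 CPM in 4OHT libraries of clone 4. In clone 8 it stood at 0.725 and 0.994 CPM in vehicle and at 0.642 and 2.12 CPM after 4OHT, so that its groups overlapped there. Its log2 fold changes of 0.60 (SE 0.59) and 0.68 (SE 0.59) did not pass the test.

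Tbx3 encodes a T-box factor that maintains naive stem cells downstream of LIF and also serves in endoderm (ENSMUSG00000018604, GRCm38 chr5:119670669-119684724, plus strand). It stood at 19.8 and 10.9 CPM in vehicle clone 4 and at 92.4 and 135.2 CPM after 4OHT. In clone 8 it stood at 24.7 and 28.6 CPM in vehicle and 15.1 and 24.6 CPM after 4OHT. The treated libraries of clone 4 lay far above the other 6, and those of clone 8 did not exceed their vehicle libraries. The log2 fold change was 2.89 (SE 0.34, adjusted p 0.0414) in clone 4 and -0.43 (SE 0.32, adjusted p 0.387) in clone 8. The difference, clone 8 minus clone 4, was -3.31 (SE 0.46, adjusted p 0.0230). Antisense genes Tbx3os1 and Tbx3os2 lie at this locus, and whether counting used strand is not given in the sources used here; they reached at most 0.250 and 0.486 CPM.

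Dppa3 and Prdm14 are shared between naive cells and primordial germ cells. Dppa3 stood at 10.6 and 10.9 CPM in vehicle clone 4 and 9.95 and 15.9 CPM in vehicle clone 8, and after 4OHT at 9.85 and 20.1 CPM in clone 4 and 9.71 and 8.48 CPM in clone 8 (ENSMUSG00000046323). Replicate 2 of vehicle clone 8 and replicate 2 of treated clone 4 lay above the other 6 libraries, which stood between 8.48 and 10.9 CPM. Its log2 fold changes were 0.48 (SE 0.34, adjusted p 0.734) in clone 4 and -0.51 (SE 0.34, adjusted p 0.333) in clone 8. The pseudogene Dppa3-ps, with which reads could be shared, reached at most 0.120 CPM. Prdm14, a chromatin regulator that restrains FGF signalling and DNA methyltransferases, had 0 and 5 counts in vehicle clone 4 and 6 and 2 in vehicle clone 8 (ENSMUSG00000042414). After 4OHT it had 4 and 2 counts in clone 4 and 0 and 1 in clone 8. A count of 0 allows up to 0.0803 CPM in the vehicle and 0.0481 CPM in the 4OHT library concerned (3 counts, counting error only), and no difference was detectable at this depth.

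**Figure D3:**
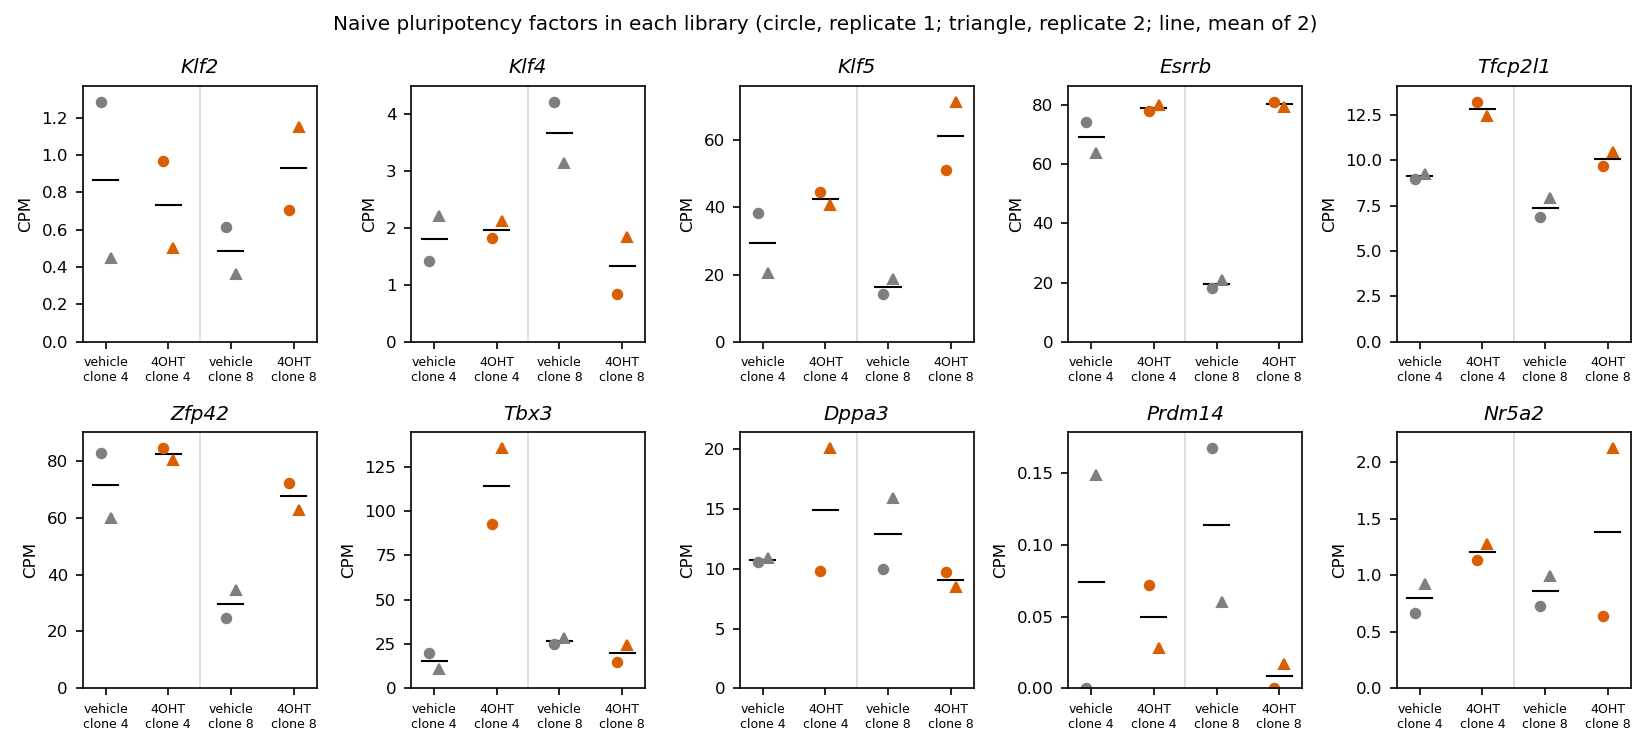
CPM of each of the 10 members in every library, grey for vehicle and orange for 4OHT, circles for replicate 1 and triangles for replicate 2, lines for the mean of 2; each panel has its own axis from 0. Esrrb runs from 18.2 to 80.9 CPM with only vehicle clone 8 low, and Tbx3 from 10.9 to 135.2 CPM with only 4OHT clone 4 high.

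The responses of the clones were compared directly by a test of their difference, which calls within single clones do not give. Esrrb responded more in clone 8 and Tbx3 more in clone 4, and the other 7 tested members did not pass in edgeR. Thus 1 of 9 was called higher in clone 8, where 1.08% of all tested genes were, and 1 lower, where 1.75% were. DESeq2 also called Klf5 (1.35, adjusted p 0.00909) and Zfp42 (0.96, adjusted p 0.0159), which makes 3 higher and 1 lower, where it called 4.22% and 5.95% of all genes. The fit without an expression filter called the same 4 members. Markers of the dissected layers were also called by edgeR in this test. Of 15 extraembryonic ectoderm markers, 6 were called higher and 0 lower, with a median log2 difference of 1.29. Of 18 visceral endoderm markers, 10 were called lower and 0 higher, with a median of -2.92. With library totals as scaling, 214 genes were higher and 197 lower, against 198 and 321 with TMM; the number of members called was the same.

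These calls rest on single libraries in part. Without vehicle clone 8 replicate 1, the log2 fold changes in clone 8 were 1.92 for Esrrb, 1.70 for Klf5 and 0.93 for Zfp42, with adjusted p-values of 0.0747, 0.103 and 0.102, and no gene at all was called there, of 3041 with all libraries. In a fit of the clone 8 libraries alone, Klf5 and Zfp42 were not called (1.87 and 1.16, adjusted p 0.0578 for both) and Esrrb was. The Tbx3 call in clone 4 was lost in 6 of 8 fits with 1 library left out: either vehicle or either 4OHT library of clone 4, or either vehicle library of clone 8. Its log2 fold change in those fits ran from 2.52 to 3.39, with adjusted p-values of 0.107 to 0.384. The Esrrb difference was lost without vehicle clone 8 replicate 1 (1.72, adjusted p 0.106) and without 4OHT clone 4 replicate 1 (1.83, 0.0666) or 2 (1.86, 0.0855). The Tbx3 difference was lost without vehicle clone 4 replicate 2 (-2.97, adjusted p 0.0698), vehicle clone 8 replicate 1 (-3.44, 0.123) or 4OHT clone 4 replicate 1 (-3.56, 0.0666) or 2 (-3.02, 0.0979).

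Over both clones, with clone as an additive term, no member was called (edgeR), where 0.00546% of all tested genes were called higher, a single gene. At an unadjusted p under 0.05 there were 4 members, all higher, where 8.80% of all genes were: Klf5 (log2 fold change 1.21, SE 0.31, adjusted p 0.134), Esrrb (1.11, SE 0.33, 0.171), Zfp42 (0.69, SE 0.22, 0.187) and Tfcp2l1 (0.47, SE 0.15, 0.194). DESeq2 called these 4, where it called 2.60% of all genes higher. Without an expression filter 4 members were called, with Tbx3 in place of Tfcp2l1, where 2.61% of all genes were higher. The mean of the responses within clones, from the fit of 4 groups, also called 4 members higher, where 2.45% of all genes were: Esrrb at 1.12, Klf5 at 1.21, Tbx3 at 1.23 and Zfp42 at 0.70 (adjusted p 0.00830, 0.0228, 0.0263 and 0.0313). Tbx3 is among these although its responses had opposite signs in the clones. Without vehicle clone 4 replicate 2, vehicle clone 8 replicate 1 or either 4OHT library of clone 4, 0 members were called by that mean, and of 1063 genes called in all, 1 or 2 were; without vehicle clone 4 replicate 1, 3 members and 168 genes were called. Every treated library exceeded every vehicle library for Esrrb, Klf5 and Tfcp2l1, 3 of 9 tested members, where this held for 3.42% of all tested genes.

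The vehicle libraries of the clones were compared to see where the members stood without 4OHT; these libraries are also the controls of the responses above. Esrrb and Zfp42 were lower in clone 8, at log2 differences of -1.82 (SE 0.14, adjusted p 0.00587) and -1.27 (SE 0.21, adjusted p 0.0198). They are 2 of 9 tested members called lower, where 4.31% of all tested genes were, and 0 members were called higher, where 4.06% were. At an unadjusted p under 0.05 there were 3 members lower and 2 higher, where 13.4% and 12.3% of all genes were. DESeq2 called 3 lower and 1 higher, adding Klf5 and Tbx3, where it called 8.38% and 8.34% of all genes. Klf5 was at -0.84 (SE 0.29, adjusted p 0.106), Klf4 at 1.02 (SE 0.44, adjusted p 0.184) and Tbx3 at 0.79 (SE 0.32, adjusted p 0.158). Both calls were lost without vehicle clone 4 replicate 1 (Esrrb -1.70 and Zfp42 -1.01, adjusted p 0.0761 and 0.135) and without vehicle clone 8 replicate 1 (-1.72 and -1.04, 0.149 and 0.186).

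Markers of the dissected tissues were read beside Esrrb, Zfp42 and Klf5, and then beside Tbx3 and Klf4. The 15 extraembryonic ectoderm markers summed to 871 and 562 CPM in vehicle clone 4, 237 and 284 in vehicle clone 8, 720 and 736 in 4OHT clone 4, and 865 and 727 in 4OHT clone 8. In clone 8, 11 of the 15 rose and 0 fell, among them Gata3 at 1.98 and Bmp8b at 2.05 on the log2 scale, and in vehicle 11 of the 15 were lower in clone 8. Of all tested genes, 8.00% rose and 8.60% fell in clone 8, and in vehicle 4.31% were lower in clone 8. In clone 4 edgeR called none of the 15, with 1 higher and 4 lower at an unadjusted p under 0.05. Of all 18321 tested genes, 1140 were higher and 674 lower at that level. Of the 15, 10 had positive and 5 negative log2 fold changes there, with a median of 0.16. DESeq2 called 2 lower, Bmp8b (-0.69) and Hand1 (-1.31), which were named after their values were seen. Esrrb, Klf5 and Zfp42 had positive log2 fold changes in clone 4 without a call. As for Esrrb and Zfp42, the vehicle libraries of clone 8 were the lowest. Esrrb varied 4.45-fold between libraries and this marker sum 3.68-fold, while Esrrb as a percentage of the sum ran from 7.32 to 11.3%, a 1.55-fold range. Zfp42 varied 3.43-fold and ran from 8.34 to 12.2% of the sum, a 1.46-fold range. Klf5 varied 4.99-fold and ran from 3.64 to 9.81%, a 2.69-fold range. The part of extraembryonic ectoderm in the results for these 3 genes was not tested, and these ratios were chosen after the values were seen.

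The 18 visceral endoderm markers summed to 1616 and 1188 CPM in vehicle clone 4, 3222 and 3118 in vehicle clone 8, 4047 and 4769 in 4OHT clone 4, and 918 and 2239 in 4OHT clone 8. In clone 4 all 18 had positive log2 fold changes, with a median of 1.79; 0 were called by edgeR, 16 had an unadjusted p under 0.05 and DESeq2 called 9. In clone 8, 5 of the 18 fell, among them Hnf4a at -1.80 and Ttr at -1.97, and 0 rose. Of all tested genes, 8.60% fell and 8.00% rose there, and 6.22% were higher in clone 4 at an unadjusted p under 0.05. Tbx3 was highest where this sum was highest and varied 12.4-fold, against 5.20-fold for the sum. Its percentage of the sum was 1.23 and 0.914 in vehicle clone 4, 0.767 and 0.917 in vehicle clone 8, 2.28 and 2.83 in 4OHT clone 4, and 1.64 and 1.10 in 4OHT clone 8. Tbx3 was thus also high in treated clone 4 relative to these markers. Klf4 varied 5.04-fold and ran from 0.0443 to 0.185% of the same sum, a 4.19-fold range. In clone 4, where the sum was higher after 4OHT, the log2 fold change of Klf4 was 0.13 (edgeR adjusted p 0.963). The part of visceral endoderm in the results for Tbx3 and Klf4 was not tested.

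**Figure D4:**
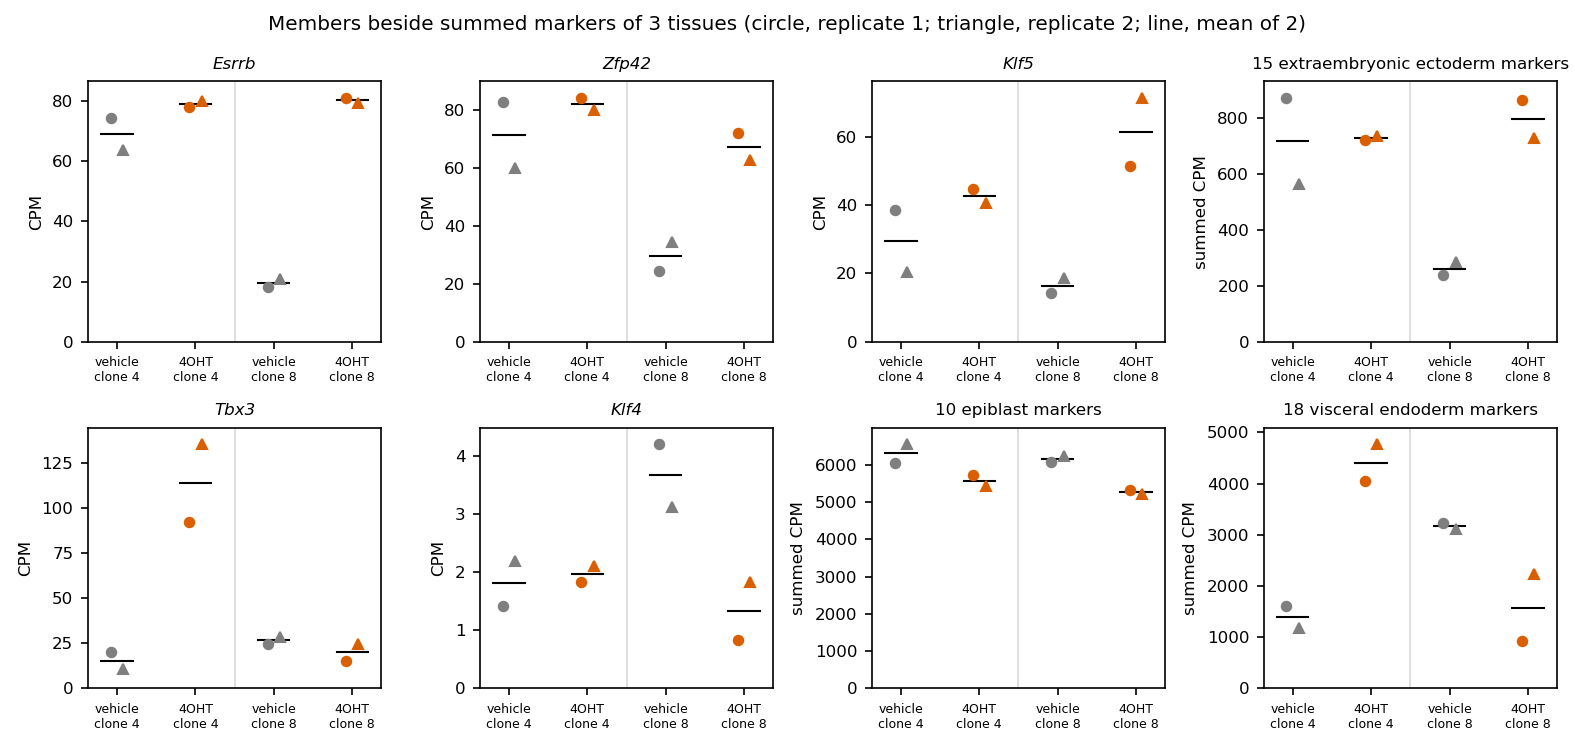
CPM of 5 members and summed CPM of extraembryonic ectoderm, epiblast and visceral endoderm markers in every library, grey for vehicle, orange for 4OHT, circles for replicate 1, triangles for replicate 2 and lines for the mean of 2; axes start at 0. Esrrb and Zfp42 are low in the 2 libraries where the extraembryonic ectoderm sum is low (237 and 284 CPM), and Tbx3 is high where the visceral endoderm sum is high (4047 and 4769 CPM).

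Other genes of the pluripotency network were read from lists beside the members. Of 4 core factors, Sox2 and Pou5f1, partners in a single complex, fell in clone 8, by 0.79 and 0.62 on the log2 scale, and 0 rose. Of all tested genes, 8.60% fell and 8.00% rose there. In clone 4 none of the 4 was called, with 3 lower at an unadjusted p under 0.05 and 1 called lower by DESeq2. Among all 18321 tested genes, 674 were lower at that level and DESeq2 called 86 lower. The medians of the 4 were -0.49 in clone 4 and -0.66 in clone 8. In vehicle, Sox2 was called higher in clone 8 than in clone 4 (1.04, edgeR adjusted p 0.0208), and 0 of the 4 were called lower. Of all tested genes, 4.06% were called higher and 4.31% lower in that comparison. The 10 epiblast markers, which include 3 of these core genes, summed to 6056 to 6548 CPM in vehicle and 5202 to 5711 CPM in 4OHT libraries, and the ranges did not overlap. Of 16 other naive and LIF pathway genes, 2 rose in clone 8: Il6st and Lifr, the subunits of the LIF receptor, at 1.10 (SE 0.23) and 1.06 (SE 0.23). In the same list Dppa5a at -0.78 and Tdh, an enzyme of threonine breakdown, at -0.92 fell. These 2 of 16 each way are near the 8.00% and 8.60% of all tested genes called in clone 8. At an unadjusted p under 0.05 clone 8 had 7 higher and 2 lower, where 17.3% and 15.8% of all genes were. DESeq2 called 5 higher and 2 lower there, where it called 11.4% and 12.2% of all genes. Of the 16, 12 had positive log2 fold changes in clone 8. In clone 4 none of the 16 was called, 4 were higher at an unadjusted p under 0.05 and DESeq2 called 1 higher. Median log2 fold changes of this list were 0.24 in clone 4 and 0.47 in clone 8. The responses of Tdh differed between the clones (difference -1.68, SE 0.31, adjusted p 0.0357).

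Of 16 formative and primed epiblast genes, those that take over as the naive factors decline, 1 rose and 2 fell in clone 8. These counts are also near the 8.00% and 8.60% of all tested genes called there. The gene that rose was Lin28b, an RNA-binding protein that blocks let-7, at 0.61, and Pou3f1 and Utf1 fell at -0.67 and -0.44. The medians were -0.08 in clone 4, with 0 called, and -0.22 in clone 8. At an unadjusted p under 0.05 clone 4 had 1 higher and 2 lower, and DESeq2 called 0. Clone 8 had 2 higher and 4 lower at that level, and DESeq2 called 1 higher and 3 lower. In vehicle, edgeR called 3 of these 16 higher in clone 8 than in clone 4 and 0 lower, where 4.06% and 4.31% of all tested genes were. They were Pou3f1 at 0.87, Foxd3 at 2.09 and Zic2 at 0.95. Of 16 ERK targets and feedback genes, 6 rose in clone 8, where 8.00% of all tested genes rose. Among them were Egr1 at 5.25, Fosl1 at 2.07 and Myc at 0.88. Spred1, an inhibitor of Ras signalling, was the 1 gene that fell, at -0.58. In vehicle, 3 of the 16 were called lower in clone 8 than in clone 4, where 4.31% of all tested genes were. These were Fosl1 at -2.54, Myc at -0.71 and Etv5 at -0.75, and Spred1 was called higher at 0.91. In clone 4 none was called, with 4 higher at an unadjusted p under 0.05 and 2 called by DESeq2. Egr1 was at 2.32 there (adjusted p 0.234 in edgeR and 0.0949 in DESeq2). The medians of the ERK list were 0.14 in clone 4 and 0.59 in clone 8. None of the genes in these 4 lists was called in the fit over both clones. At an unadjusted p under 0.05 that fit had 0 core, 8 LIF pathway, 1 formative and 7 ERK genes higher and 3, 1, 3 and 0 lower. Of all 18321 tested genes, 1613 were higher and 1475 lower at that level. DESeq2 there called 0 core, 3 LIF pathway, 0 formative and 4 ERK genes higher and 3, 0, 1 and 0 lower. Among all tested genes it called 476 higher and 577 lower.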

How the data were processed

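Libraries were made with the NEBNext Single Cell/Low Input kit, per the labels' protocols. The submitters' processing notes name bcl2fastq 2.19.1, STAR 2.5.3a and the build mm10; the counting program, its annotation and its use of strand are not given in the sources used here. The values used are the raw read counts per Ensembl gene that the authors deposited. Symbols matched 52403 of 52636 identifiers; the other 233 held at most 0.0325% of the counts of a library. Positions and exonic lengths came from GENCODE (GRCm38), promoter sequences from RefSeq.

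Counts were tested with edgeR 4.0.16 in R 4.3.3: filterByExpr given the 4 groups (clone by condition, minimum count 10, 18321 genes kept), TMM scaling, and glmQLFit and glmQLFTest on all 8 libraries. Responses within clones, their difference and the clones in vehicle came from a fit of the 4 groups, and the response over both clones from a fit with clone and treatment. P-values were adjusted by Benjamini-Hochberg over all tested genes, and a call is an adjusted p under 0.05. An SE is the log2 fold change divided by the square root of F. CPM uses TMM-scaled library sizes. The procedure was tested on simulated counts, with changed genes drawn from those above the median level. At a log2 change of 1 it recovered 69 of 100 genes within clone 4 and 144 of 200 within clone 8. For the difference of the responses it recovered only 28 of 100 at that change, and 92 of 100 at a log2 change of 2.

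All members are named; of each other list, at most 3 called genes each way per comparison, by lowest p. Members and lists were chosen with earlier results of these data known. Alternatives tried were scaling by RLE or by library totals, no filter, DESeq2 1.42.0, counts thinned to the smallest library, a block for the replicate number, fits of 1 clone alone, the mean of the responses within clones, and each library left out in turn. An adjusted p that DESeq2 gave as missing was not used. The replicate numbers name samples only and were not used as pairs.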

Additional observations from a re-analysis of the deposited data

Results flagged for a closer look

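The highest level of Dppa3 among the 4 vehicle libraries, 15.9 CPM in replicate 2 of clone 8, lay far from the other 3, at 9.95 to 10.9 CPM. Among the 4 4OHT libraries its highest level, 20.1 CPM in replicate 2 of clone 4, lay far from the other 3, at 8.48 to 9.85 CPM. Of 20 such sets of 4 libraries examined, 1 would be expected to show this by chance and 2 did. The responses of Esrrb and of Tbx3 to 4OHT differed between the clones by the test of the difference, at 1.85 and -3.31 on the log2 scale, clone 8 minus clone 4 (edgeR adjusted p 0.0122 and 0.0230).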

How the results depend on the processing

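Library totals and RLE size factors left the number of members called unchanged in all 5 comparisons. Of the members' recomputed log2 fold changes, 580 kept their direction and their side of the threshold, 25 passed it newly, 23 lost it and 27 turned sign. Members called in the difference of the responses, over both clones and in vehicle each numbered 4 without an expression filter and 4 by DESeq2, and 4 in the mean of the responses over both clones. With the replicate number as a block, 0 members were called in clone 4 (Tbx3 2.85, adjusted p 0.0683). Clone 8 alone gave 1. Leaving out each library in turn gave 0 to 1 in clone 4, 0 to 4 in clone 8, 0 to 2 in the difference and 0 to 2 in vehicle. The cause of these changes was not tested; the fits that leave out a library hold fewer samples.

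Genes called in clone 4, 7 in the report, were 728 without a filter, 468 by DESeq2, 56 in thinned counts, 0 with the replicate block, 197 in its libraries alone and 0 to 267 leaving out each library in turn. Those in clone 8, 3041, were 3 in its libraries alone and 0 to 3179 leaving out libraries. Those of the difference, 519, were 2114 without a filter, 1864 by DESeq2 and 0 to 1205 leaving out libraries. Those over both clones, 1, were 1337, 1053, 1063 by the mean of the responses, and 0 to 1 leaving out libraries. Those in vehicle, 1534, were 2901, 3064 and 0 to 2518.

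Signs turned only where a member was not called in that comparison. For the difference, Tfcp2l1 was 0.0531 with library totals, 0.0274 in thinned counts and -0.17 to 0.0143 leaving out libraries, and Nr5a2 was -0.11 in thinned counts, -0.0771 with the block and -1.02 to 0.70. Over both clones Dppa3 was 0.0554 with library totals, 0.0081 without a filter, 0.0061 in thinned counts and -0.35 to 0.22. Leaving out libraries in clone 4, Klf2 ran from -0.81 to 0.71, Klf4 from -0.16 to 0.48, Zfp42 from -0.006 to 0.46 and Dppa3 from -0.12 to 0.90. In clone 8 Nr5a2 ran from -0.42 to 1.30. In vehicle Klf2 ran from -1.38 to 0.14, Dppa3 from -0.0932 to 0.57 and Nr5a2 from -0.12 to 0.37.

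Same-numbered replicates of different groups had correlations of their deviations of -0.0376 to 0.149, so the numbers were not taken to pair libraries; apart from Tbx3 in clone 4, the block ended no call of a member, and under it Klf4 was called lower in clone 8 (-1.55, adjusted p 0.0476). Depth limits Prdm14, and with 12 to 152 counts a library also Klf2, Klf4 and Nr5a2.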

Other observations

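Of 6 primordial germ cell markers, 5 were tested, and Dppa3 and Prdm14 of the members are also known from those cells. In clone 8, Tfap2c rose and Dnd1 and Ifitm3 fell, the last 2 by 0.86 and 0.70 on the log2 scale. Of all tested genes, 8.00% were called higher and 8.60% lower there. Tfap2c is also on the extraembryonic ectoderm list. In clone 4, 0 of the 5 were called by edgeR or DESeq2, with 1 lower at an unadjusted p under 0.05. The summed level of the 6 markers was 78.8 to 196 CPM in vehicle and 116 to 138 CPM in 4OHT libraries. Much of the spread of this sum comes from Tfap2c, at 22.7 to 141 CPM in vehicle and 65.1 to 95.7 CPM in 4OHT libraries. Ifitm3 stood at 34.8 to 55.6 CPM in vehicle and 25.8 to 34.4 CPM in 4OHT libraries. Dnd1 stood at 7.57 to 9.62 CPM in vehicle and 4.88 to 6.55 CPM in 4OHT libraries, while the ranges of Prdm1, Nanos3 and Kit overlapped. The share of all tested genes with every treated library below every vehicle library is not given here.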
